A study of Mus musculus with 8 samples.

Results

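The guanylate-binding proteins are represented here by 8 genes, Gbp2 to Gbp9, of the 23369 genes in the count table. They were taken as a named family, with knowledge that Gbp5 had lower values at ZT13, so every ZT13 over ZT1 value below is a description of these libraries. The cells were CD45+CD11b+Ly6G+ neutrophils, sorted from spinal cord tissue of C57BL/6N mice in which EAE (experimental autoimmune encephalomyelitis, a model of multiple sclerosis) had been induced. Cells were harvested at ZT13 (13 h after lights-on, n = 4) or ZT1 (1 h after lights-on, n = 4), and the labels place all 8 libraries in 1 batch. Both groups carry the same genotype and the same disease induction, and the labels used here include no healthy control. The sort gate is the only definition of the cells. Age, sex and the day of disease are not given in the labels used here, nor is it stated outright that each library is 1 mouse. If libraries shared an animal, the spread below would be partly technical.

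Guanylate-binding proteins are large GTPases of the dynamin superfamily whose genes are switched on by interferon, most strongly by interferon-gamma, with IRF1 among the factors involved. In mouse macrophages they assemble on the membranes of vacuoles that hold parasites or bacteria and on bacterial surfaces, help to break these open, and promote the caspase-11 and AIM2 inflammasomes. In the mouse the genes form a cluster on chromosome 3 and another on chromosome 5, and neutrophils are among the cells known to respond to interferon-gamma.

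On GRCm38, the chromosome 3 members in genomic order are Gbp5 (ENSMUSG00000105504.5, bases 142493978 to 142522344), Gbp7 (ENSMUSG00000040253.16, 142530342 to 142550149), Gbp3 (ENSMUSG00000028268.15, 142560026 to 142573209) and Gbp2 (ENSMUSG00000028270.13, 142620602 to 142638008), all on the plus strand. The chromosome 5 members, all on the minus strand, are Gbp8 (ENSMUSG00000034438.17, 105014150 to 105139540), Gbp9 (ENSMUSG00000029298.16, 105077630 to 105139539), Gbp4 (ENSMUSG00000079363.8, 105115767 to 105139586) and Gbp6 (ENSMUSG00000104713.5, 105270702 to 105293698). The spans of Gbp8, Gbp9 and Gbp4 overlap near their start sites. The GENCODE M21 annotation lists all 8 as protein-coding. The table also holds Gbp2b on chromosome 3 and Gbp10 and Gbp11 on chromosome 5, which are not members and are described with the shared sequence.

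The stretches upstream of chromosome 3 members are shown because the genes they precede had very different values at the 2 times: Gbp5, with the largest gap between the groups, Gbp7, with almost none, and Gbp2, the most abundant member. Each runs from 250 bases before to 50 after the start site that RefSeq gives on GRCm38.p6 (chr3:142496684-142496983, chr3:142530086-142530385 and chr3:142620413-142620712, plus strand). The Gbp5 stretch lies inside the GENCODE span of Gbp5 given above, which begins at base 142493978. Bases upstream of that GENCODE start were not searched. Capitals mark matches to the interferon-stimulated response element, searched as a pair of TTTC with any 2 bases between them and the kind of site that interferon regulatory factors bind, and to the gamma-activated site TTCNNNGAA, found upstream of many interferon-gamma targets. Both strands were searched, and no 2 printed matches overlap.
Gbp5 promoter: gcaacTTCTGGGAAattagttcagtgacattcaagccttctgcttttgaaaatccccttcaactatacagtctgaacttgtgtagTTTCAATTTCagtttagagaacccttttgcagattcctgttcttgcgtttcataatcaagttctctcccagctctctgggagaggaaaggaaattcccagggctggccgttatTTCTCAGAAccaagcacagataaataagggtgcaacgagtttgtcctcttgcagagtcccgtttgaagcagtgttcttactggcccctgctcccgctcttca
Gbp7 promoter: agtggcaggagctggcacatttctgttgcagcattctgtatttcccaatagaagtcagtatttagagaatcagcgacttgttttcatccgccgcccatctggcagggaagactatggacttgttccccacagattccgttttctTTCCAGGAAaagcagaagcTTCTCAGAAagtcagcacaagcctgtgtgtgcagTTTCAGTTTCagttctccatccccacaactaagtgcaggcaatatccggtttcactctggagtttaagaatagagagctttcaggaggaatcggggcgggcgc
Gbp2 promoter: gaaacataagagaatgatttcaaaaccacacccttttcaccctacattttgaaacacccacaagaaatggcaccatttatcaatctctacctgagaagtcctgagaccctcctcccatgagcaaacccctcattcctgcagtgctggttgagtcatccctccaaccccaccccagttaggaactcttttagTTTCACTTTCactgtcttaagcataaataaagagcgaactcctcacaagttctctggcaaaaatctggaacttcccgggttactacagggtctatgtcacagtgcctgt

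The Gbp5 stretch held 1 response element, at base -165 from the start site, and 2 gamma-activated sites, at -245 and -52. The Gbp7 stretch likewise held 1 response element, at -53, and 2 gamma-activated sites, at -106 and -87. The Gbp2 stretch held 1 response element, at -59, and no match to the gamma-activated site. At Gbp3, the upstream start site had 2 overlapping response elements, at -45 and -39, and the downstream start site had none. Of all 32851 promoters of this length, 3.44% held the response element, 8.3% the gamma-activated site and 0.454% both. The E-box CACGTG, to which the clock factors CLOCK and BMAL1 can bind, was in 7.15% of all promoters and in none of those of the 4 matched members. These are matches of letters, and Gbp5 and Gbp7 held the same numbers of both elements. The other 4 members, Gbp4, Gbp6, Gbp8 and Gbp9, had no entry among these promoters and were not searched.

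Levels are CPM, counts scaled to library size with TMM factors. Totals ran from 46152067 to 67873023 counts per library. Genes detected with 1 or more counts numbered 13945 to 15751 in ZT13 libraries and 15760 to 17701 in ZT1 libraries. The 14 neutrophil markers were all in the table and summed to 182406 to 231308 CPM in ZT13 libraries and 139494 to 179030 CPM in ZT1 libraries. Both quantities separated the groups without overlap, as did Gbp5 among the members, and their part in its difference was not tested. The 18 macrophage, monocyte and microglia markers summed to 2199 to 3153 CPM in ZT13 libraries and 2235 to 3116 in ZT1 libraries. The 12 T and NK cell markers in the table summed to 8.85 to 22.2 CPM at ZT13 and 9.31 to 20.1 at ZT1, and 10 of the 12 were under 1 CPM in every library. Single markers of other cell types separated the groups. Prf1, the perforin gene, was listed at 0 in all ZT13 libraries and averaged 0.391 CPM at ZT1. Mrc1, a macrophage marker, averaged 0.0337 CPM at ZT13 and 1.17 at ZT1, while Ly6c2 averaged 1166 CPM at ZT13 and 835 at ZT1 and Cd79b, of B cells, 3.18 at ZT13 and 1.51 at ZT1. The groups did not overlap for these 4 genes, nor for 5.66% of all tested genes in either direction. The lists they come from held 17 tested macrophage, monocyte and microglia markers, 5 of T and NK cells and 3 of B and plasma cells. Log2 fold changes of ZT13 over ZT1 were negative for 8 and positive for 9 of the 17, with a median of 0.02. For T and NK cells 2 were negative and 3 positive, with a median of 0.75. For B and plasma cells 1 was negative and 2 were positive, with a median of 0.44. Prf1, Mrc1, Ly6c2 and Cd79b are named because they separated the groups, with Prf1 and Mrc1 at low levels. Their part in the Gbp values was not tested. Dendritic cell markers summed to 5.56 to 13.9 CPM at ZT13 and 5.41 to 13.8 at ZT1, B and plasma cell markers to 154 to 194 at ZT13 and 136 to 249 at ZT1, and endothelial markers to 180 to 249 at ZT13 and 216 to 305 at ZT1. Oligodendrocyte markers summed to 139 to 249 CPM at ZT13 and 141 to 203 at ZT1, while astrocyte and neuron markers summed to at most 2.67 and 0.630 CPM. Apart from the neutrophil markers, these sums overlapped between the groups, and Ifng was the 1 marker at 0 in every library.

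The members differed widely in how far their ZT13 values lay from their ZT1 values. Gbp5, which has been linked to the NLRP3 and AIM2 inflammasomes in mouse macrophages, stood 17.97-fold lower at ZT13 by the fitted values, and Gbp4 stood 9.21-fold lower. Gbp2 and Gbp3 stood 1.99-fold and 1.75-fold lower at ZT13, while the mean of Gbp7 was nearly equal at both times. None of the 8 passed the edgeR quasi-likelihood test over all genes. The libraries with high values were ZT1 replicates 2 and 3 for most members, with ZT1 replicates 1 and 4 closer to the ZT13 libraries, and Gbp5 was the exception in that all 4 ZT1 libraries lay above all 4 ZT13 libraries. Because whole sorted samples were sequenced, fewer expressing cells and less RNA per cell cannot be told apart.

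**Figure D1:**
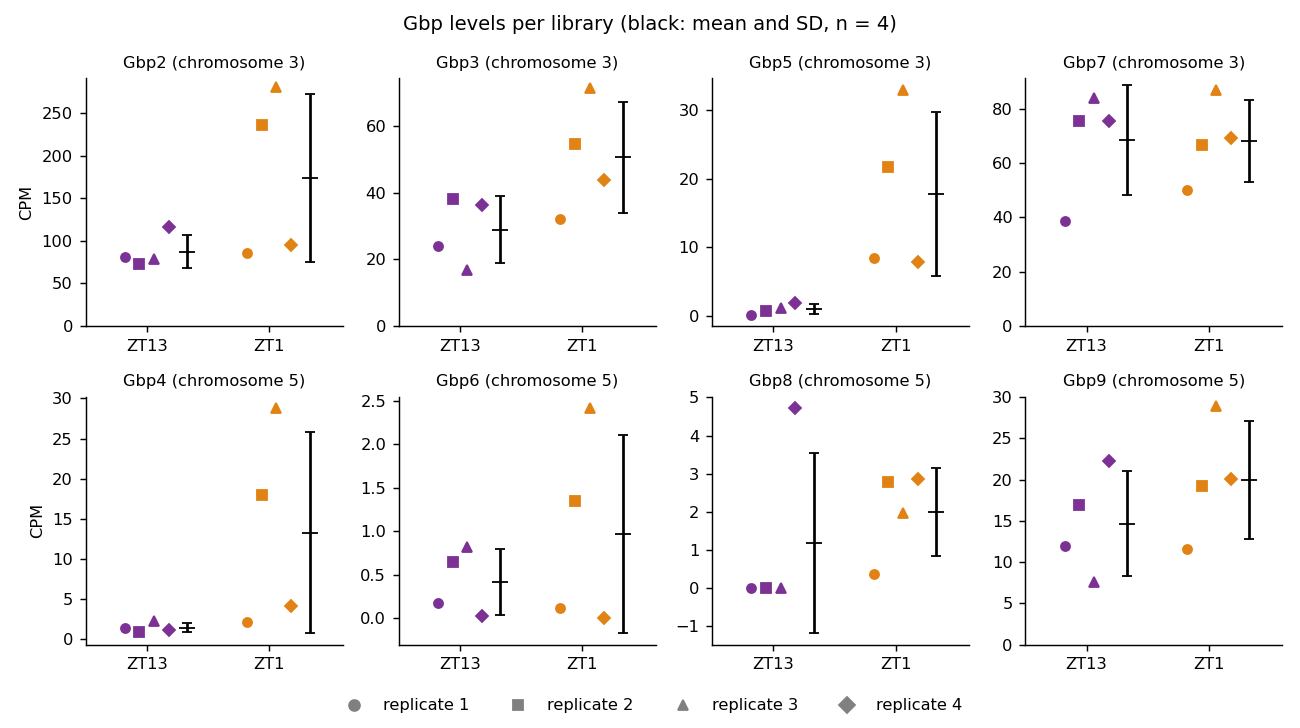
Levels of the 8 Gbp members in CPM (y axes on separate linear scales), with ZT13 to the left of ZT1. Coloured points are libraries, shaped by replicate number, and black marks are the mean and SD of 4 libraries, whose lower end can fall below 0. For Gbp5 every ZT13 point lies between 0.158 and 1.91 CPM and every ZT1 point between 7.80 and 32.96 CPM.

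Gbp5 had 0.158, 0.749, 1.15 and 1.91 CPM in ZT13 libraries 1 to 4, against 8.50, 21.7, 32.96 and 7.80 CPM in ZT1 libraries 1 to 4. The lowest ZT1 library thus lay above the highest ZT13 library, with the largest spread among ZT1 libraries. The underlying counts were 8, 44, 57 and 85 in ZT13 libraries, against 523, 1010, 1964 and 565 in ZT1 libraries. The smallest of these, 8 counts in ZT13 replicate 1, has an exact Poisson 95% interval of 3.45 to 15.8 counts, which covers counting error only. Means were 0.990 ± 0.735 CPM at ZT13 and 17.7 ± 11.99 CPM at ZT1 (SD, n = 4 each), with a log2 fold change of -4.17 ± 0.74 (SE).

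Gbp4, a chromosome 5 member whose function in neutrophils is less well described, had 1.458, 0.936, 2.21 and 1.15 CPM in ZT13 libraries, against 2.18, 17.96, 28.8 and 4.10 CPM in ZT1 libraries. ZT1 replicates 2 and 3 were far above the others, and ZT1 replicate 1 lay just below ZT13 replicate 3, so the groups overlapped. The log2 fold change was -3.20 ± 0.76, and -2.49 without ZT1 replicate 3.

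Gbp2, which with Gbp5 carries a C-terminal lipid anchor and is recruited to Toxoplasma vacuoles in mouse cells, had 81.0, 73.3, 78.2 and 117 CPM in ZT13 libraries, against 85.3, 235.5, 279.8 and 94.96 CPM in ZT1 libraries. Of the ZT1 libraries, replicates 1 and 4 fell inside the ZT13 range and the other 2 were well above it. Means were 87.3 ± 19.8 CPM at ZT13 and 174 ± 98.5 CPM at ZT1, with a log2 fold change of -0.99 ± 0.37. Gbp3 had 24.1, 38.2, 16.9 and 36.1 CPM in ZT13 libraries, against 32.2, 54.6, 71.5 and 43.9 CPM in ZT1 libraries. Only ZT1 replicate 1 lay within the ZT13 range, and the log2 fold change was -0.81 ± 0.30.

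Gbp7, linked in mouse macrophages to assembly of the NADPH oxidase, had 38.5, 75.4, 83.9 and 75.4 CPM in ZT13 libraries, against 49.9, 66.6, 86.9 and 69.2 CPM in ZT1 libraries. The groups covered almost the same range, and ZT1 replicate 2, among the highest libraries for Gbp2 and Gbp5, was not high for Gbp7. Means were 68.3 ± 20.3 CPM at ZT13 and 68.2 ± 15.1 CPM at ZT1, with a log2 fold change of 0.00 ± 0.24 whose sign turned under 10 alternative settings. Gbp9 had 11.9, 16.9, 7.56 and 22.3 CPM in ZT13 libraries, against 11.5, 19.2, 29.0 and 20.1 CPM in ZT1 libraries. Here ZT1 replicate 3 alone lay above the ZT13 range, and the log2 fold change was -0.44 ± 0.36.

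Gbp6 and Gbp8 had libraries of 0 counts. Gbp6 had 0.177, 0.647, 0.824 and 0.0225 CPM in ZT13 libraries, against 0.114, 1.35, 2.42 and 0 CPM in ZT1 libraries. The lowest values were single libraries of both groups, with 1 count in ZT13 replicate 4 and 0 in ZT1 replicate 4. Counts of 0 entered means and ratios as 0. As a guide to the lowest levels, 3 counts equal 0.0414 to 0.0674 CPM across the 8 libraries. Gbp8 had 0, 0, 0 and 4.72 CPM in ZT13 libraries, against 0.374, 2.77, 1.98 and 2.87 CPM in ZT1 libraries. A single library, ZT13 replicate 4, held all 210 ZT13 counts of Gbp8 and exceeded every ZT1 library. The log2 fold change of Gbp8 was -0.76 ± 1.81, and that of Gbp6 was -1.21 ± 1.51. Without ZT1 replicate 3 the value of Gbp6 was -0.22. Without ZT13 replicate 4 no Gbp8 count remained at ZT13, and the fitted value of -9.84 then depends on the fit's prior count.

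All 8 members passed the filter on low counts and were tested. By unadjusted p under 0.05 in edgeR, 4 members were lower at ZT13 (Gbp5, Gbp4, Gbp2 and Gbp3), where 4.85% of all 12610 tested genes were, and 0 members were higher. With ZT13 replicate 1 or 3 or ZT1 replicate 2 or 3 left out, that number was 2. After adjustment over all genes, edgeR called 0 members and 0% of the 12610 genes, with 9.20% of genes at an unadjusted p under 0.05 in either direction. Adjusted p-values of the members in edgeR ran from 0.246 for Gbp5 to 0.997 for Gbp7. DESeq2, run as an alternative, called 2 members, both lower at ZT13, where 1.10% of 15032 genes were and 1.70% were called in either direction. These were Gbp5 (DESeq2 adjusted p = 4.46e-07) and Gbp4 (DESeq2 adjusted p = 0.00103). The groups did not overlap for 1 member, Gbp5, while the same was true of 5.66% of tested genes in either direction and of 3.00% with lower values at ZT13. Of the 8 members, 7 had negative log2 fold changes, against 52.3% of tested genes, and 3 were at -1 or lower, against 4.60%. The median log2 fold change was -0.90 over the 8 members, -0.90 in the chromosome 3 cluster, -0.99 in the chromosome 5 cluster and -0.02 over all tested genes. The chromosome 5 value is the midpoint of Gbp6 and Gbp8, the members with the widest SE. The members were chosen on this contrast, so nothing is read from how their counts stand against these shares.

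**Figure D2:**
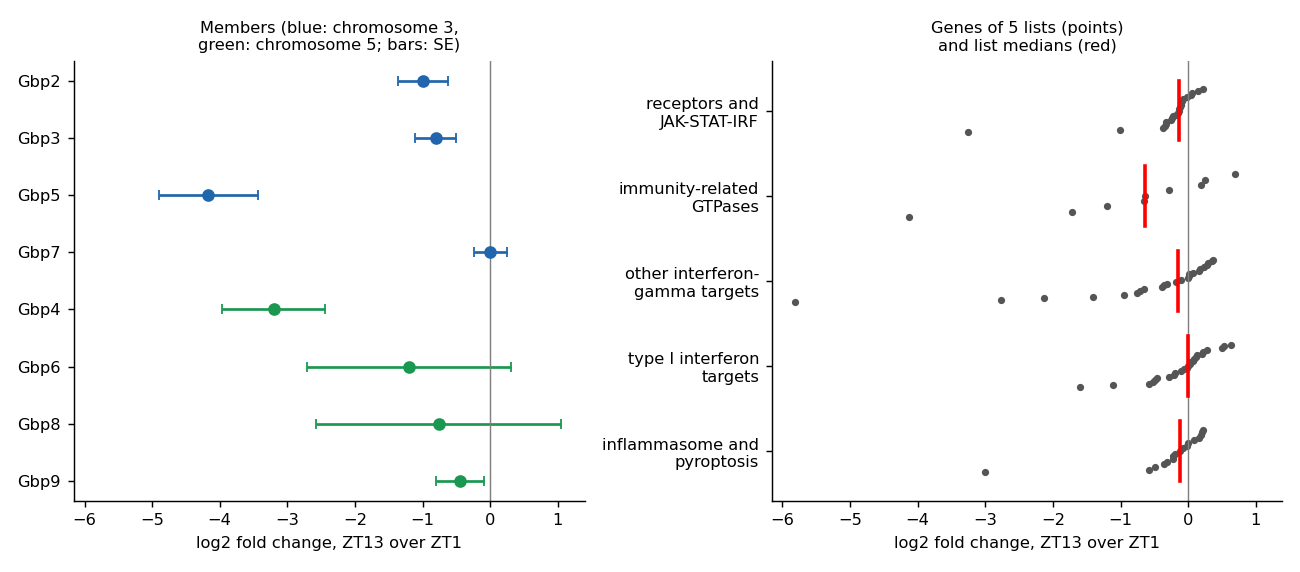
Log2 fold changes of ZT13 over ZT1 for the 8 members with SE bars (left, blue for chromosome 3 and green for chromosome 5) and for single genes of 5 lists, with the list median in red (right). Gbp5 at -4.17 and Gbp4 at -3.20 lie farthest left among the members, Gbp7 lies at 0.00, and the median of the immunity-related GTPases is -0.64.

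Per kilobase of merged exons, Gbp2 was the most abundant member in all 8 libraries. At ZT13 the mean levels in CPM per kilobase ran from Gbp2 with 34.7 through Gbp7 with 12.2, Gbp3 with 8.83 and Gbp9 with 2.84 to Gbp8 with 0.342, Gbp4 with 0.192, Gbp5 with 0.149 and Gbp6 with 0.0702. At ZT1 the order was Gbp2 with 69.1, Gbp3 with 15.5, Gbp7 with 12.1, Gbp9 with 3.86, Gbp5 with 2.67, Gbp4 with 1.77, Gbp8 with 0.581 and Gbp6 with 0.163. Libraries of neighbouring genes overlapped for Gbp3 and Gbp7 at both times, and for each neighbour below Gbp9 at ZT13. At ZT1 neighbours overlapped from Gbp9 downwards. The place of Gbp8 at ZT13 rests on replicate 4, without which its level is 0, and it ranked 8 in the other 3 ZT13 libraries. With the longest transcript as the length, Gbp5 at ZT1 had 4.72 CPM per kilobase and stood above Gbp9 with 3.96, so their order at ZT1 depends on the length used. By merged exons, Gbp2 ranked 1 and Gbp9 ranked 4 in every library. Gbp5 ranked 6 or 7 in ZT13 libraries, against 5 in every ZT1 library. Gbp3 ranked above Gbp7 in all 4 ZT1 libraries and only in replicate 1 at ZT13. Summed per kilobase, the chromosome 3 members stood 18.3 ± 6.40 times as high as the chromosome 5 members at ZT13 and 16.2 ± 3.50 times at ZT1, and the groups overlapped. All 8 members together made up 0.0159% to 0.0249% of the counts in ZT13 libraries and 0.0207% to 0.0501% in ZT1 libraries.

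**Figure D3:**
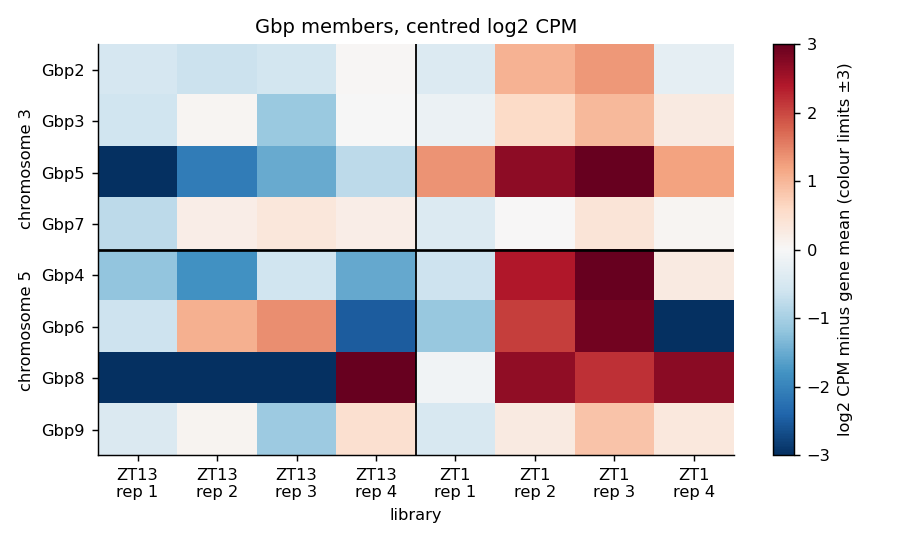
Log2 CPM of each member (rows, chromosome 3 above the line and chromosome 5 below it) in each library (columns, ZT13 left of ZT1), minus the gene's mean over the 8 libraries, with colours limited to 3 log2 units either way. ZT1 replicates 2 and 3 are the reddest columns for Gbp2, Gbp3, Gbp5, Gbp4 and Gbp6, and Gbp5 is the only row that changes colour at the border between the groups without exception.

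Ratios within a library do not depend on its depth or scaling factor. For every 100 Gbp2 counts there were 0.195, 1.02, 1.464 and 1.64 Gbp5 counts in ZT13 libraries, against 9.96, 9.21, 11.8 and 8.21 in ZT1 libraries. The ZT1 libraries lay close together on this ratio, including replicates 1 and 4, whose Gbp2 level was in the ZT13 range. For every 100 Gbp2 counts there were 1.80, 1.28, 2.83 and 0.982 Gbp4 counts in ZT13 libraries, against 2.55, 7.62, 10.3 and 4.32 in ZT1 libraries. On this ratio ZT1 replicate 1 again lay inside the ZT13 range. Per 100 Gbp7 counts, Gbp4 did not overlap, with 1.24 to 3.79 in ZT13 libraries and 4.36 to 33.1 in ZT1 libraries. Gbp3 ran at 33.6 ± 12.98 per 100 Gbp2 counts at ZT13 and 33.2 ± 10.8 at ZT1, so the mean proportion was nearly the same. Single libraries ran from 21.6 to 52.0 at ZT13 and from 23.2 to 46.2 at ZT1. Gbp7 ran at 80.5 ± 29.2 per 100 Gbp2 counts at ZT13 and 47.7 ± 21.7 at ZT1, with overlap. As a share of all counts of the 8 members, Gbp5 took 0.451 ± 0.281% at ZT13 and 4.76 ± 1.25% at ZT1, without overlap. Gbp5 had a log2 fold change of -4.17, beside -0.99 for Gbp2. Its ratio to Gbp2 and its share of the family therefore largely restate its own difference.

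Gbp5 was also set against other interferon-responsive genes. Per 100 counts of Irf1, a transcription factor of Gbp genes, there were 0.129 to 1.33 Gbp5 counts in ZT13 libraries and 7.61 to 12.6 in ZT1 libraries. Per 100 counts of Irgm1, an immunity-related GTPase, there were 0.388 to 3.42 Gbp5 counts at ZT13 and 18.7 to 25.6 at ZT1. In neither ratio did the groups overlap, while Gbp2 relative to the same genes overlapped in both. Irf1 and Irgm1 had log2 fold changes of -0.37 and -0.64, beside -4.17 for Gbp5, so its ratios to them largely restate its own difference.

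**Figure D4:**
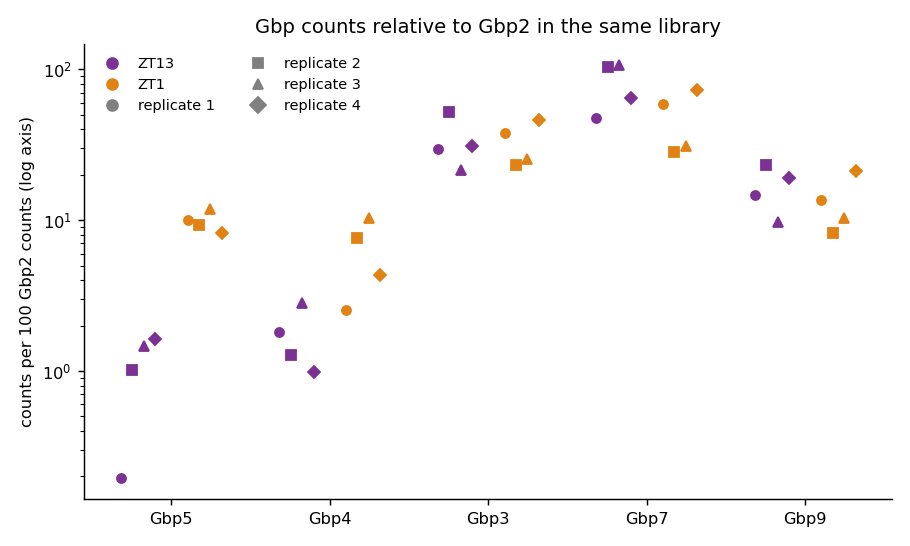
Counts of 5 members per 100 Gbp2 counts of the same library (log axis), with ZT13 in purple to the left of ZT1 in orange and point shapes for replicates. Gbp5 lies between 0.195 and 1.64 in ZT13 libraries and between 8.21 and 11.8 in ZT1 libraries, while the points of Gbp3, Gbp7 and Gbp9 intermingle.

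Reads were 50 bases long, and paralogs that share stretches of that length can exchange counts, or lose them where such reads are discarded. The sources used here do not give how the authors' counting treated reads that map to several places. Every 50-base window of the members' M21 transcripts was therefore searched in the transcripts of all other genes. Of the Gbp5 windows, 98.3% were found in no other gene, none exactly in another Gbp gene and 0.0732% in one with up to 2 mismatches. With up to 2 mismatches 93.6% of Gbp5 windows were in no other gene, beside 92.9% for Gbp2 and 93.2% for Gbp3. In the chromosome 3 cluster, 97.9% of Gbp2 windows, 96.3% of Gbp3 windows and 87.3% of Gbp7 windows were found in no other gene. Gbp2 shared 2.11% of its windows with Gbp2b, and Gbp3 shared 3.75% with Gbp7. Of the Gbp7 windows, 10.5% lie at the same place as the processed pseudogene Gm43802, and 2.26% were found in another Gbp gene.

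The chromosome 5 members were more alike. Windows found exactly in another Gbp gene made up 7.54% of Gbp4, 8.18% of Gbp9, 18.5% of Gbp8 and 49.9% of Gbp6. With up to 2 mismatches these shares were 22.0% for Gbp4, 28.6% for Gbp9, 49.4% for Gbp8 and 63.3% for Gbp6. Of the Gbp6 windows, 45.9% were found in Gbp10. The overlapping gene Gm43302, whose counts were not analysed here, held 28.3% of them at the same place and 36.7% at another place. Over all genes, 62.3% of Gbp6 windows were found at another place. Aligned coding sequences were 90.2% to 92.9% identical within the chromosome 5 members and 64.8% to 78.6% within those of chromosome 3. Gbp6 and Gbp10 were 98.4% identical, with 421 coding bases in an unbroken identical run.

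**Figure D5:**
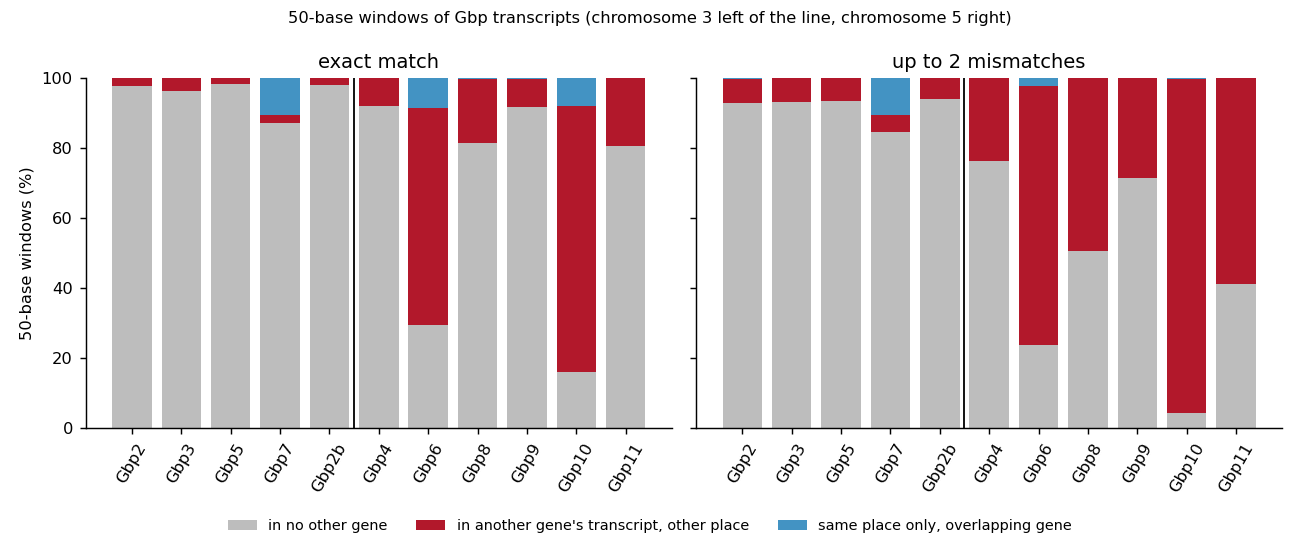
Share of each gene's 50-base transcript windows (y axis, percent) found in no other gene (grey), in another gene's transcript from another place (red) or only at the same place in an overlapping gene (blue), by exact match (left) and with up to 2 mismatches (right). Genes left of the line lie on chromosome 3. Gbp5 is 98.3% grey by exact match and Gbp6 is 29.3% grey.

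A 60-base coding stretch was read from the GENCODE M21 transcripts on GRCm38. It was chosen as the stretch most like Gbp6 over the chromosome 5 genes, so their few differences in it follow from that choice. It is given for Gbp6 (chr5:105290892-105290951), the near-identical Gbp10 (chr5:105236006-105236065), Gbp4 (chr5:105136893-105136952) and Gbp8 (chr5:105050919-105050978), all on the minus strand, and for Gbp5 (chr3:142500632-142500691) on the plus strand. Capitals mark bases that differ from Gbp6.
Gbp6 coding window: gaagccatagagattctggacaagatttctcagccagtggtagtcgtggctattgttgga
Gbp10 coding window: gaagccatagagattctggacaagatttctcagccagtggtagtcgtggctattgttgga
Gbp4 coding window: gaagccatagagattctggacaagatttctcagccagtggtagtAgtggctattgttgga
Gbp8 coding window: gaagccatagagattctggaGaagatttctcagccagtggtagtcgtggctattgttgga
Gbp5 coding window: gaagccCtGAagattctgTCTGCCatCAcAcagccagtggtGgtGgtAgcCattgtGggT
Gbp10 and Gbp11 did not differ from Gbp6 here, Gbp4, Gbp8 and Gbp9 each differed at 1 base, and the chromosome 3 members differed at 14 to 22 bases. By the window shares above, values of Gbp6 and, less so, of Gbp8 are uncertain between paralogs. Those of Gbp4 and Gbp9 are also affected, with 7.54% and 8.18% of windows shared exactly and more with up to 2 mismatches. The 3 family genes outside the members held almost no counts. Gbp2b had 15 counts in ZT1 replicate 3, Gbp10 had 4 counts in the same library, Gbp11 had 20 counts in ZT1 replicate 1, and all 3 were at 0 in the other libraries. They did not pass the filter and were not tested.

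Lists of genes around the Gbp family are described by counts and medians beside the median of -0.02 over all tested genes, of which 4.85% were lower at an unadjusted p under 0.05 and 9.20% differed in either direction, and edgeR called no gene in any of them after adjustment. DESeq2 called 1 of the receptor and signalling genes, 1 immunity-related GTPase, 3 other interferon-gamma targets and 2 inflammasome genes, all lower at ZT13, and 0 in the other pathway lists. Over all genes DESeq2 called 1.10% as lower and 1.70% in either direction. Of 23 tested genes for interferon receptors and JAK-STAT-IRF signalling, 3 were lower at ZT13 at an unadjusted p under 0.05, and 0 were higher, with a median of -0.14. These 3 were Ifnar1, a chain of the type I interferon receptor, at 89.8 ± 3.18 CPM at ZT13 and 113 ± 7.99 at ZT1, Stat3 with a log2 fold change of -0.22 ± 0.10 and the feedback inhibitor Socs1 with -1.01 ± 0.43. Ifng itself was listed at 0 in all 8 libraries. Its receptor chains had nearly equal levels, with Ifngr1 at 445 CPM at ZT13 and 472 at ZT1 and Ifngr2 at 176 at ZT13 and 171 at ZT1. Irf1 had 122, 132, 130 and 143 CPM in ZT13 libraries, against 107, 211, 262 and 102 CPM in ZT1 libraries. ZT1 replicates 2 and 3 were thus above, and ZT1 replicates 1 and 4 below, every ZT13 library, and the log2 fold change was -0.37 ± 0.28.

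The list of immunity-related GTPases, some of which act on pathogen vacuoles beside the Gbp proteins, included 9 tested genes with a median of -0.64. Of the 9, 3 were lower at an unadjusted p under 0.05 and 0 were higher. These 3 were Ifi47 (log2 fold change -1.20 ± 0.48), Tgtp1 (-4.13 ± 1.54) and Tgtp2 (-1.71 ± 0.71). Ifi47 had 22.9, 44.9, 36.6 and 36.5 CPM in ZT13 libraries, against 33.7, 107, 150 and 32.9 CPM in ZT1 libraries. Again ZT1 replicates 2 and 3 were high and the other 2 lay in the ZT13 range. Among 24 other interferon-gamma targets, 5 were lower and 1 higher at an unadjusted p under 0.05, with a median of -0.15. The T cell chemoattractant gene Cxcl9 had a log2 fold change of -5.82 ± 1.12 and no overlap, with 0 to 0.562 CPM in ZT13 libraries and 1.72 to 25.1 in ZT1 libraries. The higher one was Psme1, a proteasome activator subunit at 0.35 ± 0.15 on the log2 scale, which was named after its value was seen.

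Among 25 type I interferon targets, 1 was lower and 1 higher at an unadjusted p under 0.05, with a median of -0.01. Of all tested genes, 4.85% were lower and 9.20% differed in either direction. The lower one was Oas2, a sensor of double-stranded RNA, at 57.7 CPM at ZT13 and 82.3 at ZT1. The higher one was Ifitm3, a restrictor of virus entry, at 1520.3 CPM at ZT13 and 1053 at ZT1. Of 17 inflammasome and pyroptosis genes, through which Gbp proteins act in macrophages, 4 were lower and 0 higher, with a median of -0.12. They were Mefv, the pyrin gene, at -0.58 ± 0.13, Il1a at -3.01 ± 0.82, Casp8 at -0.23 ± 0.09 and the pore-forming Gsdmd at -0.20 ± 0.09. Casp4, which encodes mouse caspase-11, had 58.2 CPM at ZT13 and 58.4 at ZT1.

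None of 6 prenylation enzymes, which attach the lipid anchor, and none of 11 ATG8 conjugation genes, which guide Gbp proteins to vacuoles, had an unadjusted p under 0.05, with medians of 0.05 and 0.17. Of 14 vacuole and bacterial targeting partners, 1 was lower at an unadjusted p under 0.05 and 3 were higher, with a median of 0.00. The lower one was the galectin gene Lgals8, with a log2 fold change of -0.36. The higher ones were Lgals3 with 0.34, the autophagy receptor gene Calcoco1 with 0.51 and Cyba, an NADPH oxidase subunit, with 0.42.

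The genes whose profile over the 8 libraries was most like the mean of each cluster were ranked by the mean absolute difference of centred log2 CPM among 9684 genes. For chromosome 3 they were Trpm4 at 0.276, F3 at 0.316, Clic4 at 0.344, Tgm2 at 0.363 and Ccdc90b at 0.378, beside a median of 0.795 over all genes. For chromosome 5 they were Serpina3g at 0.274, Cxcl10 at 0.324, Tgtp2 at 0.351, Bcl2a1a at 0.408 and Socs1 at 0.490, beside a median of 1.10. Cxcl10 had 4.79, 5.64, 8.34 and 8.44 CPM in ZT13 libraries, against 7.24, 64.6, 101 and 13.1 CPM in ZT1 libraries. The cluster means weigh each member equally whatever its counts. In ZT13 replicate 1 the centred log2 CPM of Gbp5 was -4.12 where the chromosome 3 mean was -1.50, and Gbp8 was at -3.62 in the ZT13 libraries where it had no count. Genes measured in the same library share its depth and handling, and the likeness is a description over 8 points.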

How the data were processed

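RNA was sequenced as single 50-base reads, per the labels' protocols, after SMART-Seq v4 amplification and Nextera XT preparation, which does not mark strand. The authors deposited raw counts per gene. The submitters' processing notes name STAR 2.7.10b, Subread 2.0.3 with featureCounts, DESeq2 1.46.0 and FastQC, on GRCm38. The sources used here do not give their settings or the annotation release. Columns were matched to samples by library name. Of 23369 identifiers, 22222 matched GENCODE M21 by identifier without version. Version numbers differed for all Gbp genes.

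Genes were filtered with filterByExpr (minimum count 10, minimum total count 15), leaving 12610, and fitted with the quasi-likelihood test of edgeR 4.0.16 (R 4.3.3) with TMM factors and Benjamini-Hochberg adjustment at 0.05. Each SE is |log2 fold change| over the square root of F. Library totals of 46152067 to 67873023 counts put 3 counts at 0.0414 to 0.0674 CPM. The biological coefficient of variation was 0.498, so spread between libraries, not depth, limits precision above a few CPM. Alternatives used DESeq2 1.42.0, limma 3.58.1 (voom), other scalings and filters, a replicate block and each library left out. The fits were tested on simulated data. Promoters came from RefSeq. The members and lists were chosen with earlier results of these data known. The genes named are all members and other Gbp genes, up to 4 tested genes per list with the smallest p plus signalling genes by name, and the 5 genes most like each cluster; not all are printed, and 1 is not reported here.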

Additional observations from a re-analysis of the deposited data

Results flagged for a closer look

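Gbp8 in ZT13 replicate 4 stood at 4.72 CPM while the other 3 ZT13 libraries were at 0, so that library is far from the rest of its group. Gbp2b at 0.252 CPM and Gbp10 at 0.0671 CPM in ZT1 replicate 3, and Gbp11 at 0.325 CPM in ZT1 replicate 1, were each the only library of the gene above 0. For normally spread values chance sets about 1 in 20 groups apart in this way; here 3 libraries of each group are at 0, and the rate for such groups was not measured. Gbp8 shares 18.5% of its 50-base windows with other Gbp genes and Gbp10 shares 76.2%, and the part of shared reads in these values was not tested.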

How the results depend on the processing

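Under all alternatives run, the log2 fold changes of Gbp5 (-4.69 to -3.68), Gbp4 (-3.55 to -1.79), Gbp2 (-1.22 to -0.67), Gbp3 (-0.98 to -0.60), Gbp8 (-9.84 to -0.35) and Gbp9 (-0.72 to -0.21) kept their sign, where they could be fitted. The median of the members ran from -1.16 to -0.63. The edgeR and limma settings called 0 members, with adjusted p of 0.130 to 0.631 for Gbp5 and 0.199 to 0.697 for Gbp4. With DESeq2, 2 members, 256 genes of the table and 5 genes of the interferon lists passed. Members at an unadjusted p under 0.05 numbered 4 in the reported fit and 3 with the 5 CPM filter, limma-voom or the block by library name. They numbered 2 under limma-voom with quality weights and 2 to 5 with a library left out. With the 5 CPM filter Gbp4, Gbp6 and Gbp8 were not fitted. The members behind these numbers also changed. Gbp5 was under 0.05 in 20 of 20 settings, Gbp3 in 16 of 20 and Gbp4 in 16 of 19. Gbp2 was so in 11 of 20 and Gbp8 in 4 of 19. These settings hold the reported fit at both thresholds, 0.05 and 0.1. The cause of the changes among fitted members was not tested. Gbp7 turned negative with library totals (-0.052), no filter (-0.015), limma-voom (-0.031), its quality weights (-0.0098), a library left out (-0.12 to 0.20, negative without ZT13 replicate 2, 3 or 4 or ZT1 replicate 1 or 2). Gbp6 turned positive with limma-voom (0.48). With up to 2 mismatches, 4 members in place of 2 shared over 10% of windows with another Gbp gene. Lengths moved Gbp5 and Gbp4 (longest transcript) and Gbp6 (unique windows, a choice made after seeing the data).

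Libraries of the same number by title or library name correlated between -0.0399 and 0.0505 in their deviations. By title, 1 of 8 libraries correlated best with its own number. By library name, ZT13 replicate 3 and ZT1 replicate 4 both carry number 4 and correlated best with each other, at 0.0505. The replicate block called 0 members by title (Gbp7 at -0.030) or by library name (Gbp6 at 1.39).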
